A study of Mus musculus with 6 samples.

Results

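Chromatin marks were read at 9 genes of the reelin pathway and of neuronal migration, namely Reln, Dab1, Vldlr, Lrp8, Cdk5, Cdk5r1, Cdk5r2, Dcx and Pafah1b1, out of 21887 protein-coding genes in the RefSeq table of GRCm38.p6. The genes were chosen as a pathway with peaks at some of them already known, so their marks are given as a description and no test is attached to them. Every peak of both marks that touched a gene span or the 5 kb on either side was read. Forebrain neural stem and progenitor cells of E13.5 mice were cultured with EGF and FGF (20 ng/ml each), and at passage 2 to 3 they received water or 10 mM crotonate for 24 h. The submitters made CUT&Tag libraries (an antibody tethers a transposase that cuts and tags nearby DNA) for H3K4me3, H3K27me3 and normal rabbit IgG under each treatment, 6 samples in all. The 4 peak lists of both marks were read, and the IgG libraries were not analysed here. The labels give no strain or sex and do not say whether cells of several embryos were pooled. With 1 library per mark and treatment no difference below has a replicate check, and no p-value for a difference between treatments is given.

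Reelin is a secreted glycoprotein made in the embryonic cortex mainly by Cajal-Retzius neurons of the marginal zone. It binds the lipoprotein receptors VLDLR and ApoER2 (the product of Lrp8) on migrating neurons, and the adaptor DAB1 is then phosphorylated on tyrosine. A second route to correct layering runs through the kinase CDK5 with its neuronal activators p35 (Cdk5r1) and p39 (Cdk5r2), and through the microtubule proteins doublecortin (Dcx) and LIS1 (Pafah1b1). H3K4me3 marks active and poised gene starts, and H3K27me3 is the mark that Polycomb repressive complex PRC2 places over silent developmental genes. A start that carries both is called bivalent.

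The RefSeq sequences (GRCm38.p6) of 5 starts are shown because together they cover each combination of marks found at these genes, and 2 of them differed between treatments. Each runs 5′ to 3′ in the direction of transcription from 250 bases before the start through the first 50 bases of the transcript, with every CpG dinucleotide in capitals. Dab1 has 2 annotated starts, 748.0 kb apart on the plus strand of chromosome 4. The upstream start (chr4:103619250-103619549) carried H3K27me3 alone in water and both marks after crotonate, and the internal start (chr4:104367288-104367587) carried H3K4me3 alone in both lists. The start of Cdk5r2 (chr1:74854779-74855078, plus strand) went the same way as the upstream Dab1 start. That of Reln (chr5:22344656-22344955, minus strand) carried both marks under both treatments. The first of a pair of overlapping Dcx starts (chrX:143933170-143933469, minus strand) carried neither.
Dab1 upstream start: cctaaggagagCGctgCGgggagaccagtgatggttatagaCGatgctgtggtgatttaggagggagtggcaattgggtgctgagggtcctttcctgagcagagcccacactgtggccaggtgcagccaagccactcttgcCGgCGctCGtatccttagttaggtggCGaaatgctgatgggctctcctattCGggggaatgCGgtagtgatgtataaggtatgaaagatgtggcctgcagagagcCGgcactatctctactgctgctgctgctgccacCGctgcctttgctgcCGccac
Dab1 internal start: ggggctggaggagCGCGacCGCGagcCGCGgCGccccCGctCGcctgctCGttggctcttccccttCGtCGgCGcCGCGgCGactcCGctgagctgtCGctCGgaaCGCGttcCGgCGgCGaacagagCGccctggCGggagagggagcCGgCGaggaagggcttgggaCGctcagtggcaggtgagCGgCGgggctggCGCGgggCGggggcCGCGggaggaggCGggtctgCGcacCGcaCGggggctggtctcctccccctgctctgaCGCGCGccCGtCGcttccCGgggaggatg
Cdk5r2 start: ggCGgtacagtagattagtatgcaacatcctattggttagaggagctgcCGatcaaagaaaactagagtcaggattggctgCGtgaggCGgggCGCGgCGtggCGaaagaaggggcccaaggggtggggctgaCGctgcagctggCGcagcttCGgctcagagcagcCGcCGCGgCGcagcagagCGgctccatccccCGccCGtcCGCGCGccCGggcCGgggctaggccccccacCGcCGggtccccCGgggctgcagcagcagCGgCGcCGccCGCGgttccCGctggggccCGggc
Reln start: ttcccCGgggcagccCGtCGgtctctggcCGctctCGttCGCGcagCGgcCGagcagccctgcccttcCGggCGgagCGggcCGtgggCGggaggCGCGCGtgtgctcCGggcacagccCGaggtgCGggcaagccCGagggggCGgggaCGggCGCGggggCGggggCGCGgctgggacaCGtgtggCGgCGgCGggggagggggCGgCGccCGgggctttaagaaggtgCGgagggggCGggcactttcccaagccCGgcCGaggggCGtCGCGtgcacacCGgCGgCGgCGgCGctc
Dcx start: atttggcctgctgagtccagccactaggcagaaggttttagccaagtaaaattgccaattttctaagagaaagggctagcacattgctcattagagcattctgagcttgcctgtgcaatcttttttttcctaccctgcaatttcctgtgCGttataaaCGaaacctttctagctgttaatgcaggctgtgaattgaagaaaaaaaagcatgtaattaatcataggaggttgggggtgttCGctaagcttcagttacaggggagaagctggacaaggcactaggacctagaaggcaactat
The Reln, internal Dab1 and Cdk5r2 starts held 47, 46 and 33 CpG. The upstream Dab1 start held 12 and the Dcx start 3.

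The values that describe a peak in the deposited lists are the authors' own. Pileup is the scaled number of fragments over the summit, the highest point of the peak. Dividing it by the step between possible pileup values of a list gave the number of fragments there, which is the depth behind each call. The step was 0.2599 in water and 0.4025 after crotonate for H3K4me3, and 0.2867 and 0.6357 for H3K27me3. Fragment numbers of different lists are therefore not on the same scale, and a difference between them is not a gain or loss of the mark. Fold enrichment sets the summit against the local background of the caller, and −log10 q is the significance of the peak against that background. Because scaling and background differ between libraries, peaks are ranked only within their own list, where a percentile of 50 is the median peak. Intervals on fragments are exact Poisson 95% intervals and cover counting error only. The local background implied by the deposited values at a summit also moved between lists. For H3K27me3 it went from 1.0 in water to 3.0 after crotonate at Reln and from 3.0 to 0.964 at the upstream Dab1 start. For H3K4me3 it went from 1.04 to 0.696 at Vldlr. Its part in differences of fold enrichment or percentile was not tested. The H3K4me3 lists held 13221 peaks in water and 16007 after crotonate, and the H3K27me3 lists 7643 and 15879. No list held a peak with fewer than 8 fragments at the summit. The weakest peaks of the water H3K4me3 list had 16, so a start without a call is not a start without fragments. The libraries pool cells, and whether both marks lay on the same allele or in the same cells was not measured.

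Reln, the ligand gene, lies on chromosome 5 from 21884454 to 22344705 and was marked around its start and nowhere else in its 460.3 kb. H3K27me3 covered 11196 bp in water, from -6128 to 5067 bp around the start (negative before it, positive inside the gene), with a pileup of 54.48 (190 fragments, 163.9 to 219.0). After crotonate it covered 12047 bp with a pileup of 59.76 (94 fragments, 76.0 to 115.0). Both domains were strong within their lists, at percentiles 94.0 and 95.0 of −log10 q. A much shorter H3K4me3 peak sat inside the domain, over the start. It measured 1328 bp in water, with 46 fragments at the summit (33.7 to 61.4) and a fold enrichment of 6.48. After crotonate it measured 1672 bp, with 79 fragments (62.5 to 98.5) and a fold enrichment of 10.9. H3K4me3 at Reln thus ranked low in water, at percentile 11.0, and at percentile 31.1 after crotonate. The summit lay at 448 bp in water and at -243 bp after crotonate. H3K4me3 took up 11.9% of the H3K27me3 domain in water and 13.9% after crotonate.

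**Figure D1:**
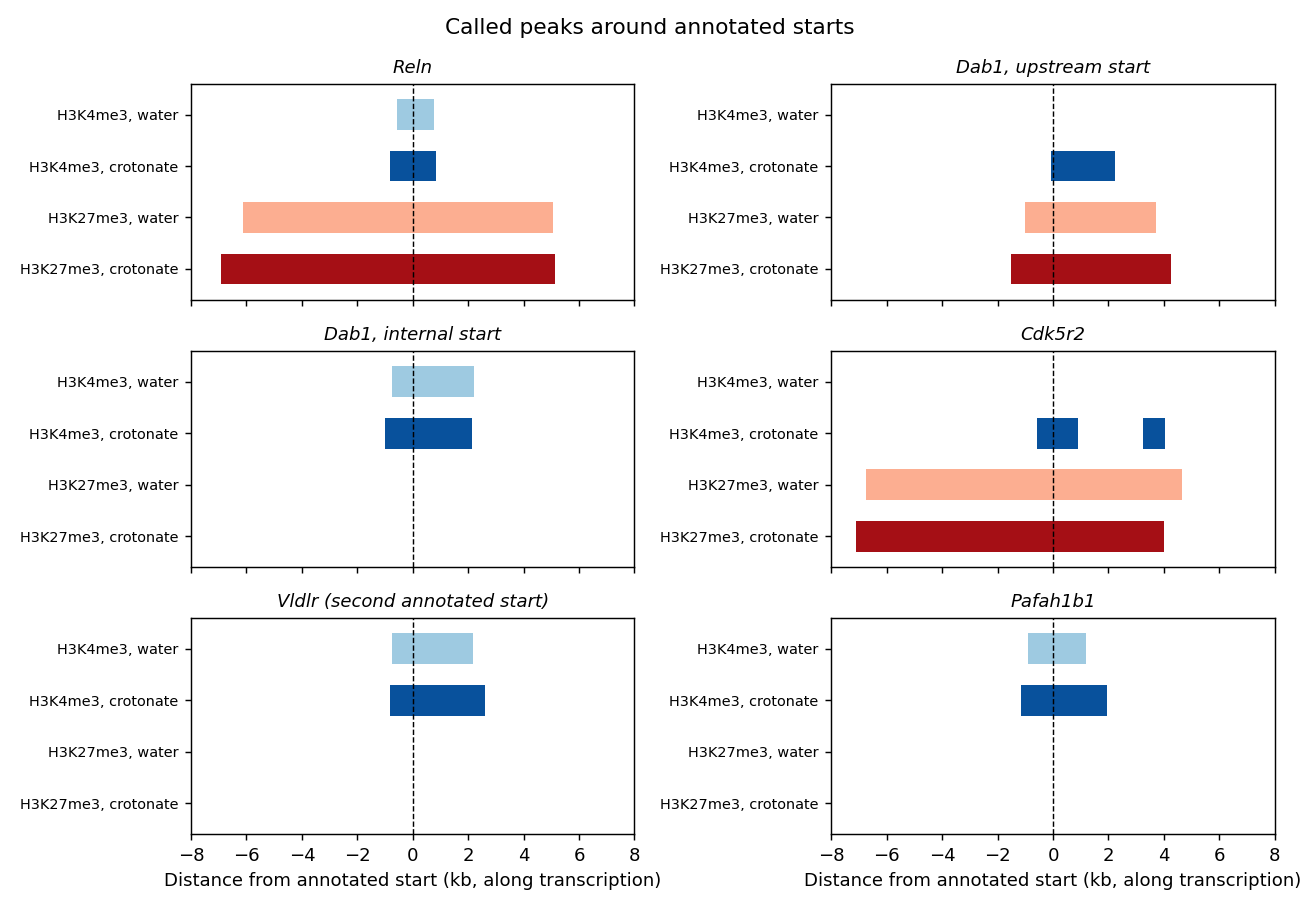
Called peaks around 6 annotated starts, drawn as bars against the distance from the start in kb along the direction of transcription, with 1 row per mark and treatment (1 library each). The upstream Dab1 start and Cdk5r2 have an H3K4me3 bar over the start after crotonate only, inside H3K27me3 bars present under both treatments, while Reln has bars in all 4 rows and the other starts H3K4me3 alone.

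The receptor genes Vldlr and Lrp8 carried H3K4me3 at their starts under both treatments and no H3K27me3 peak anywhere in their windows. Vldlr lies on chromosome 19 from 27216480 to 27254231, and its H3K4me3 peak covered both annotated starts, which lie within 1 peak. The lncRNA gene Gm35438 overlaps the whole of Vldlr. The H3K4me3 peak measured 2.94 kb in water, with 190 fragments at the summit, a fold enrichment of 24.8 and percentile 79.4. After crotonate it measured 3.44 kb with 217 fragments, a fold enrichment of 52.1 and percentile 96.5, the highest rank of any H3K4me3 peak over the 9 genes in that list. Lrp8, on chromosome 4 from 107802200 to 107876840, had an H3K4me3 peak of 2751 bp in water (204 fragments, percentile 73.3) and of 2985 bp after crotonate (211 fragments, percentile 81.2) over the first of its 3 annotated starts, and its edge reached the lncRNA gene Lrp8os3. The other 2 starts, inside the gene, had no peak of either mark. A further H3K4me3 peak in the Lrp8 window, of 1303 bp in water and 1270 bp after crotonate, lay over the start of the neighbour Magoh and past the end of Lrp8.

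Dab1, whose product couples the receptors to the cell's kinases, spans 1125 kb of chromosome 4 from 103619500 to 104744844 and carried different marks at its 2 starts. At the upstream start H3K27me3 covered 4700 bp in water (128 fragments at the summit, 106.8 to 152.2, percentile 85.8) and 5759 bp after crotonate (73 fragments, 57.2 to 91.8, percentile 95.6). Its upstream edge also overlapped the lncRNA gene Gm36604. No H3K4me3 peak lay at the start in water. After crotonate an H3K4me3 peak of 2308 bp was called from 103619443 to 103621750, or -57 to 2250 bp around the start. Its pileup was 27.37, or 68 fragments (52.8 to 86.2), where the weakest peaks of the same list had 13. Its fold enrichment was 15.9 and its percentile 34.1. The whole peak lay within the H3K27me3 domain and took up 40.1% of it.

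The internal Dab1 start was marked by H3K4me3 alone. That peak measured 2954 bp in water, with a pileup of 48.86 (188 fragments) and a fold enrichment of 24.9, and 3123 bp after crotonate, with a pileup of 72.04 (179 fragments) and a fold enrichment of 14.6. It ranked at percentile 78.3 in water and 52.0 after crotonate. The local background implied by the deposited values was 1.0 in water and 4.0 after crotonate at this summit, and its part in the lower rank was not tested. Between the starts, 1 short H3K27me3 peak of 539 bp was called after crotonate only, with 15 fragments and percentile 14.7. It lay between -81559 and -81021 bp from the internal start.

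Cdk5, the kinase gene, lies on chromosome 5 from 24407597 to 24423587 in a dense stretch with Abcb8, Asic3 and Slc4a2. It had no H3K27me3 peak. In water an H3K4me3 peak of 1851 bp covered the higher-coordinate end of Cdk5 and the beginning of the Slc4a2 span, with 153 fragments at the summit and a fold enrichment of 12.2. A second peak of 1586 bp (157 fragments) lay 574 bp further on, over the annotated starts of Slc4a2. After crotonate a single peak of 4961 bp with 201 fragments took the place of both. The gene's only H3K4me3 peak called after crotonate alone was short and weak, 432 bp with 23 fragments (14.6 to 34.5) at percentile 12.4, and lay within the overlapping gene Asic3. These peaks cannot be assigned to Cdk5 rather than to its neighbours from position alone.

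The paralogous activator genes of CDK5 carried opposite marks in water. Cdk5r1, on chromosome 11 from 80477023 to 80481184, had an H3K4me3 peak of 1539 bp over its lower-coordinate end, with 100 fragments at the summit (81.4 to 121.6) and a fold enrichment of 13.49. It measured 1702 bp after crotonate, with 116 fragments (95.9 to 139.1) and a fold enrichment of 23.3. No H3K27me3 peak touched the Cdk5r1 window in water. After crotonate 4 did, with 13 to 17 fragments at the summit. The longest measured 2074 bp and the others 355, 422 and 472 bp, where the median peak of that list measured 828 bp. The weakest, the one of 355 bp at percentile 26.8, lay inside the H3K4me3 peak. The other 3 lay past the higher-coordinate end, 2 of them in Myo1d, and ranked between percentiles 55.9 and 63.2.

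Cdk5r2, on chromosome 1 from 74855029 to 74857732, lay whole within an H3K27me3 domain of 11388 bp in water and 11090 bp after crotonate. The domain had a pileup of 80.28 (280 fragments, 248.2 to 314.8) in water and 108.71 (171 fragments, 146.3 to 198.6) after crotonate, and ranked at percentiles 96.4 and 98.5. Its summit was at the same base in both lists, 1152 bp inside the gene. The water list held no H3K4me3 peak in the window. After crotonate an H3K4me3 peak of 1483 bp covered the start, from -575 to 907 bp around it, with a pileup of 22.13 (55 fragments, 41.4 to 71.6), a fold enrichment of 13.6 and percentile 30.9. A weaker one of 781 bp (27 fragments, 17.8 to 39.3, percentile 14.3) began 543 bp past the gene end, and 95.4% of it lay in the H3K27me3 domain. The lncRNA gene Gm16582 overlaps the whole of Cdk5r2, and both H3K4me3 peaks and part of the domain also touch it.

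Dcx, which encodes the microtubule-binding protein of migrating neurons, was the only member with no H3K4me3 peak in either list. It lies on chromosome X from 143855842 to 143933396. Its H3K27me3 calls were weak and far from the start, the nearest 32.4 kb inside the gene. In water there were 2, of 589 and 385 bp, with 16 fragments each at the summit and a −log10 q of 1.53, close to the lowest value in that list (1.3). After crotonate there were 6, between 377 and 1060 bp. Of these, 5 had the same pileup of 6.36, or 10 fragments (4.8 to 18.4), and the same percentile of 24.3. Only 1 of the 2 water peaks met a crotonate peak, and that overlap was 24 bp. Of 966 X-linked protein-coding genes, 10.9% had an H3K27me3 peak in their windows in water and 18.4% after crotonate.

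Pafah1b1 encodes LIS1, a regulator of the motor dynein, and is expressed broadly. It lies on chromosome 11 from 74673949 to 74724384 and carried H3K4me3 at its start with no H3K27me3. The peak measured 2099 bp in water, with a pileup of 61.85 (238 fragments, the most of any peak over the 9 genes in that list) and a fold enrichment of 16.3. After crotonate it measured 3112 bp, with a pileup of 92.56 (230 fragments) and a fold enrichment of 23.4. The summit was at the same base in both lists, 234 bp inside the gene.

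**Figure D2:**
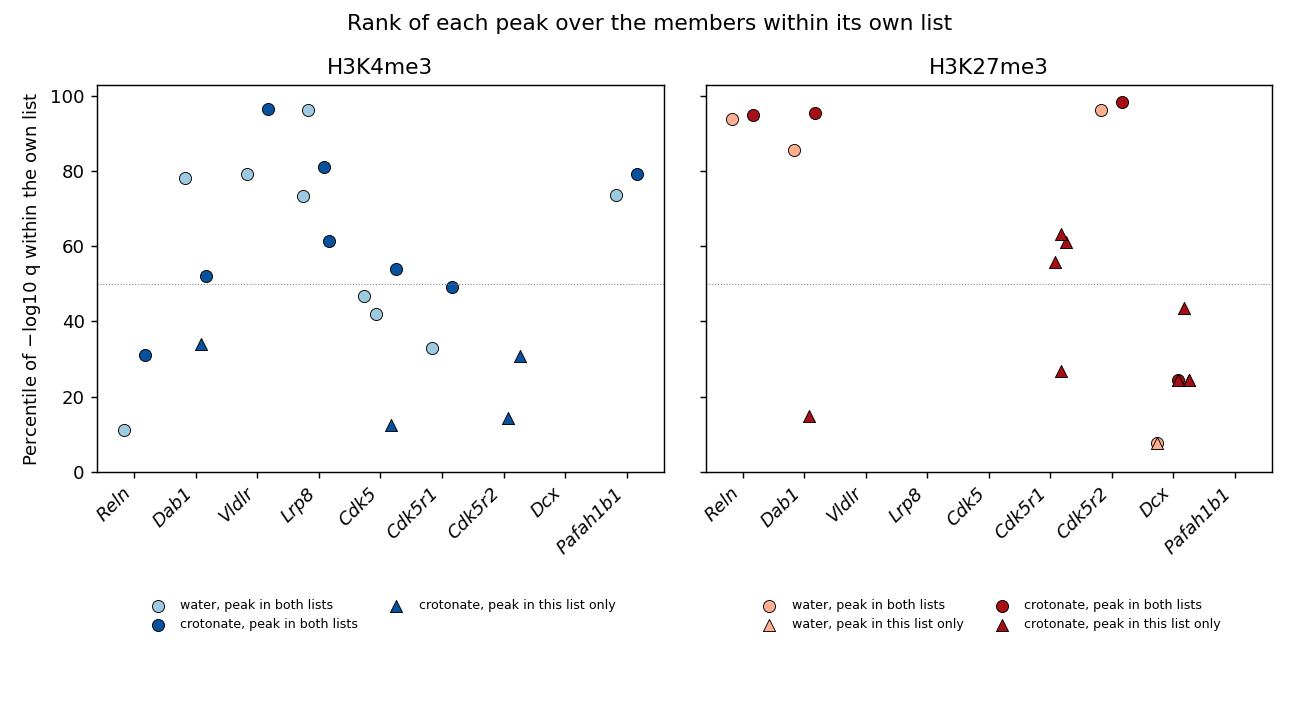
Percentile of −log10 q within its own list for every peak over the 9 genes, H3K4me3 on the left and H3K27me3 on the right, with circles for peaks found in both lists of a mark and triangles for peaks in 1 list only (points of a gene are spread sideways, and equal values at Dcx overlap). H3K4me3 peaks found after crotonate only rank at percentiles 12.4 to 34.1, and the domains of Reln, Dab1 and Cdk5r2 rank at 85.8 to 98.5.

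Counted over windows, an H3K4me3 peak was called at 7 of the 9 genes in water (59.1% of all protein-coding genes) and at 8 after crotonate (63.1%), the added gene being Cdk5r2. H3K27me3 was called at 4 in water (Reln, Dab1, Cdk5r2 and Dcx, against 12.2% of all genes) and at 5 after crotonate (17.2%), the added gene being Cdk5r1. An H3K4me3 peak present after crotonate only touched 3 of the 9 (Dab1, Cdk5r2 and Cdk5, against 15.3%). An H3K27me3 peak present after crotonate only also touched 3 (Dab1, Cdk5r1 and Dcx, against 11.6%). Peaks in the water list only touched 0 of the 9 genes for H3K4me3 (0.434% of all genes) and 1, Dcx, for H3K27me3 (1.61%). Overlapping peaks of both marks were found at Reln alone in water (4.18% of all genes) and at Reln, Dab1, Cdk5r2 and Cdk5r1 after crotonate (7.63%). Long windows catch more peaks: among the 7506 genes that span at least 30 kb, 74.9% had H3K4me3 and 16.2% H3K27me3 in water. As the genes were picked with such peaks known, nothing is read from these counts about the pathway.

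**Figure D3:**
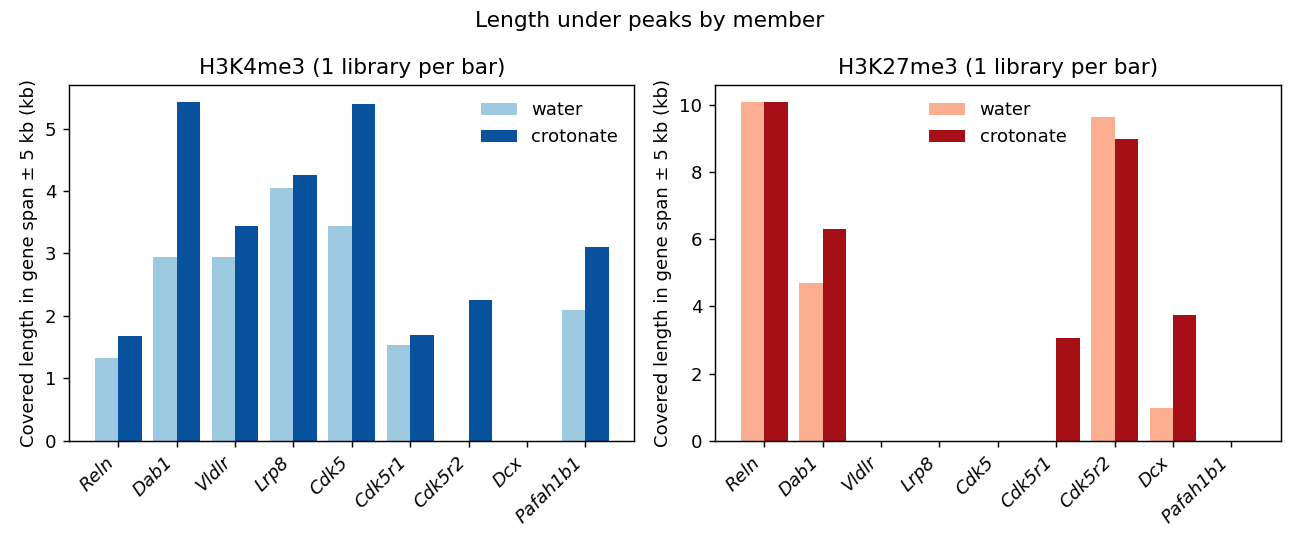
Length in kb under H3K4me3 peaks (left) and H3K27me3 peaks (right) within each gene span and 5 kb either side, in water and after crotonate, with each bar from 1 library. H3K4me3 covered more after crotonate at each of the 8 genes that had it (96.4% of all genes with the mark did the same), while H3K27me3 at Cdk5r2 covered 9.64 kb in water and 8.99 kb after crotonate, a direction that turned with 10 kb either side.

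The length under H3K4me3 peaks was greater after crotonate at 8 of the 8 genes with the mark, as at 96.4% of the 13823 protein-coding genes with it in either list. The largest differences were at Dab1, from 2.95 to 5.43 kb, and at Cdk5r2, from 0 to 2.26 kb. H3K27me3 covered 10.1 kb of the Reln window under both treatments, since most of what was added lay beyond its 5 kb flank. In the Cdk5r2 window it covered 75.9% in water and 70.8% after crotonate, but with 10 kb either side it covered 0.299 kb more after crotonate. Among H3K4me3 peaks that met exactly 1 peak of the other list, 6 of the 7 at these genes were longer after crotonate, against 94.5% of 12093 such pairs over the genome. The exception was the Magoh peak in the Lrp8 window. The ratio of lengths was 1.48 at Pafah1b1, 1.26 at Reln, 1.17 at Vldlr, 1.11 at Cdk5r1, 1.09 at Lrp8 and 1.06 at the internal Dab1 start, where the median pair had 1.24. For H3K27me3, 3 of 4 pairs were longer, against 78.6% of 3987, and Cdk5r2 had a ratio of 0.974. Peak length depends on sequencing depth, which the lists do not state.

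**Figure D4:**
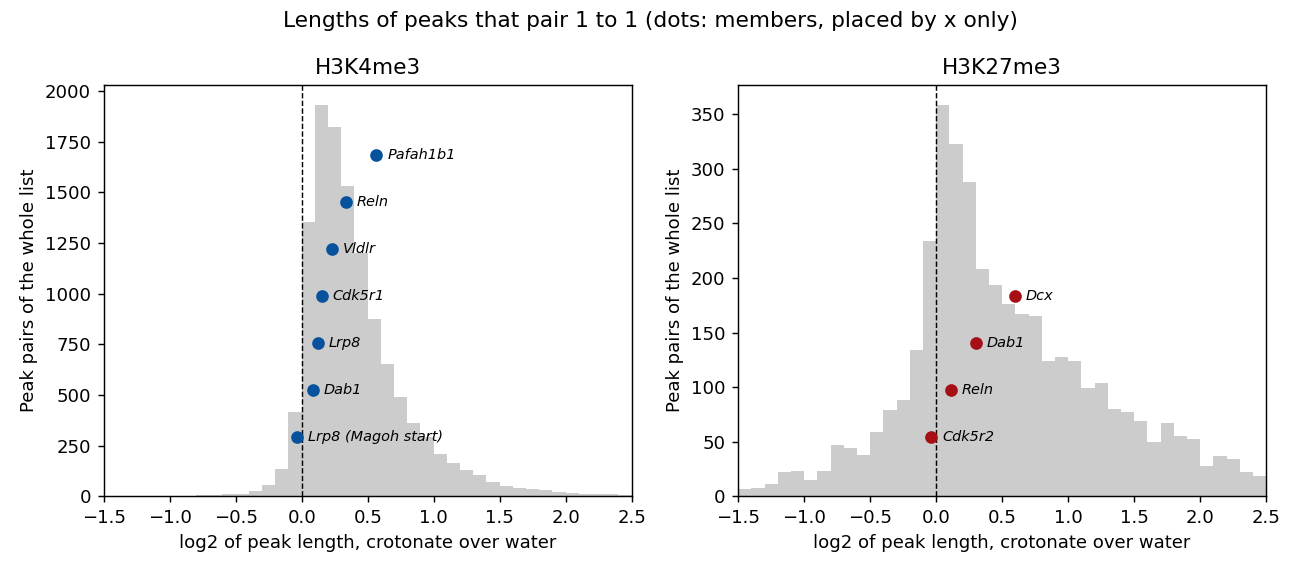
Number of peak pairs by log2 of their length after crotonate over water, for all pairs of H3K4me3 (left) and H3K27me3 (right), with dots at the values of pairs over the 9 genes (the height of a dot has no meaning). H3K4me3 pairs at the 9 genes run from a ratio of 0.975 at the Magoh start in the Lrp8 window to 1.48 at Pafah1b1.

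Annotated starts give a view that does not grow with gene length. The RefSeq table held 12 starts of 7 of the genes, counted here over their 300 bases. In water 5 carried H3K4me3 only (49.6% of 21263 starts of protein-coding genes), 2 H3K27me3 only (4.03%), 1 both (1.8%) and 4 neither (44.6%). After crotonate 5 again carried H3K4me3 only (51.8%), 0 H3K27me3 only (3.56%), 3 both (3.53%) and 4 neither (41.1%), so the only starts to differ were the upstream Dab1 start and that of Cdk5r2. Over the genome, 270 of 856 starts with H3K27me3 only in water (31.5%) carried both after crotonate, and 322 of 382 with both (84.3%) still had both.

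The CpG number of the 300 bases was not used to choose the genes, although H3K4me3 and H3K27me3 are both known to favour CpG-rich starts. The motif searched was CG, which reads the same on both strands, and 95.4% of all starts held at least 1, with a median of 13. Starts that carried both marks in both lists had a median of 26, and Reln, with 47, was above their upper quartile of 34. Starts that went from H3K27me3 only to both had a median of 21 and quartiles of 14 and 29.75. Cdk5r2, with 33, lay above that range and the upstream Dab1 start, with 12, below it. Starts that stayed with H3K27me3 only had a median of 12. The internal Dab1 start, with 46, was among the most CpG-rich of all, at percentile 98.2. Vldlr had 8 CpG at the first start and 23 at the second, both under the same H3K4me3 peak. The starts without either mark were CpG-poor, with 3 at each Dcx start, whose windows overlap, and 5 and 4 at the internal Lrp8 starts, against a median of 3 for starts with neither mark in both lists.

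**Figure D5:**
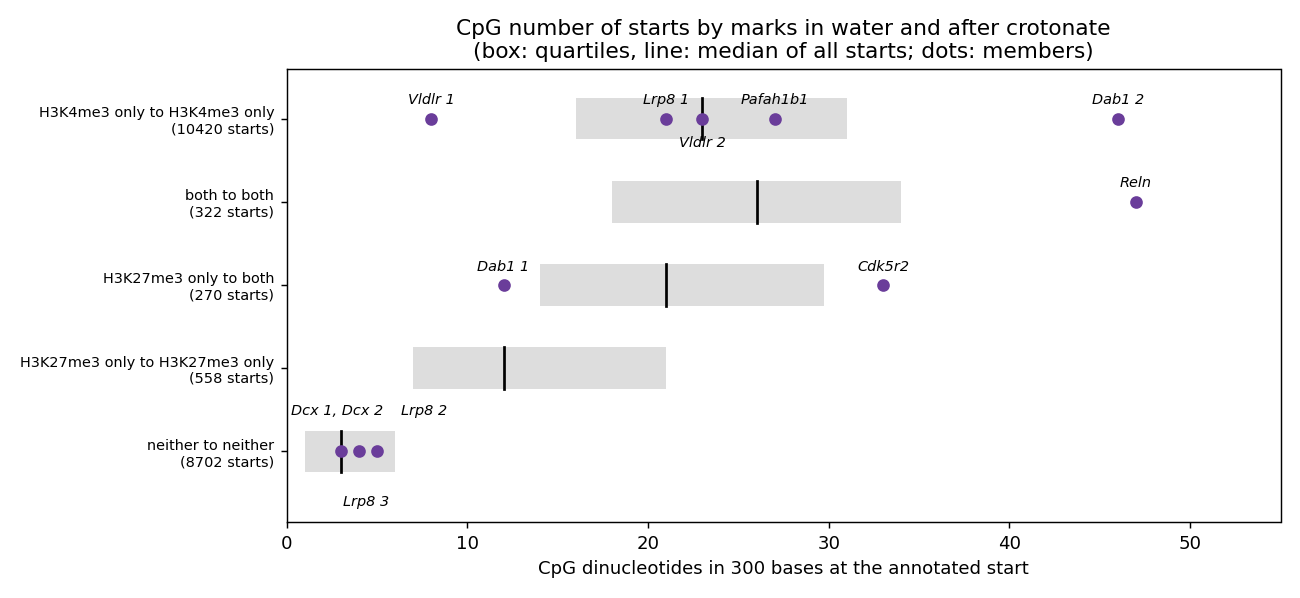
CpG dinucleotides in the 300 bases at annotated starts (x axis), grouped by the marks in water and after crotonate, with grey boxes for the quartiles and lines for the median of all starts of protein-coding genes, and dots for the 12 starts of the pathway genes (1, 2 and 3 number the starts of a gene along transcription). The upstream Dab1 start and Cdk5r2 lie on either side of the box of their class, and Dcx lies with the CpG-poor starts without marks.

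Other genes of the pathway, 65 in all, mostly carried H3K4me3 without H3K27me3. Within 2 kb of either annotated end, 58 of 65 had H3K4me3 in water (54.1% of all genes) and 61 after crotonate (58.2%). Fyn, a kinase that phosphorylates DAB1, and Ndel1, a partner of LIS1, had H3K4me3 peaks of 2.88 and 1.89 kb in water, and of 3.30 and 2.08 kb after crotonate. A mark was counted as gained where the ends had no peak in water, and as lost where they had none after crotonate. By that count H3K4me3 was gained at the ends of 3 of the 65 through peaks in the crotonate list only (3.92% of all genes) and lost at 0 (0.032%). Efnb3, an ephrin ligand, had such a peak of 0.987 kb with 27 fragments and Dclk3, a doublecortin-like kinase gene, one of 0.326 kb with 18. Fez1, a kinesin adaptor gene, had one of 0.433 kb with 36, beside an H3K4me3 peak of 2.15 kb elsewhere in its window in water. The Dclk3 peak lay in an H3K27me3 domain that was 3.19 kb long in water and 3.96 kb with crotonate. These 3 peaks ranked between percentiles 3.72 and 14.0, below the new peaks at the starts of Dab1 and Cdk5r2. H3K27me3 lay at the ends of 6 of the 65 in each list (9.45% and 12.3% of all genes), and was gained or lost through peaks of 1 list at 0 (3.02% and 0.338%). Over whole windows, as counted for the 9 genes, peaks in the crotonate list only touched 19 of the 65 for H3K4me3 (15.3% of all genes). For H3K27me3 they touched 6 (11.6%). Peaks in the water list only touched 0 for H3K4me3 (0.434%) and 2 for H3K27me3 (1.61%).

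Both marks overlapped in water at 5 of the 65 windows (4.18% of all genes), those of Akt1, Itga3, Mapt, Cxcl12 and Lamb1. After crotonate they overlapped at 7 (7.63% of all genes), Dctn1 and Dclk3 being added. At Akt1, Mapt and Dctn1 no H3K27me3 peak lay within 2 kb of either annotated end in either list. At Itga3, Cxcl12, Lamb1 and Dclk3 one did in each list. Whether the overlaps in these windows belong to neighbouring genes was not tested. Cxcl12 encodes a chemokine that guides migrating neurons and Cajal-Retzius cells. Like Reln it had a short H3K4me3 peak, 0.774 kb in water and 1.16 kb after crotonate, within a longer H3K27me3 domain of 5.62 and 6.55 kb. Dclk1, the closest relative of Dcx on the list, carried H3K4me3 in both lists, whose strongest peak measured 1.63 kb with water and 1.95 kb with crotonate, and no H3K27me3.

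The label of the cells was checked on marker genes. All 10 stem and progenitor markers, among them Sox2, Nes, Pax6 and Hes5, had an H3K4me3 peak in their windows in both lists, as did 5 of 7 neuronal markers, beside 59.1% of all genes in water and 63.1% after crotonate. Of 4 astrocyte, 4 oligodendrocyte, 5 microglial and 6 vessel and fibroblast markers, 1, 0, 1 and 1 had H3K4me3 in water and 1, 1, 1 and 2 after crotonate. The microglial one was Aif1, whose peak lay away from both annotated ends. Within 2 kb of either end, 9 stem and progenitor (all but Pax6), 5 neuronal and 0 microglial markers had H3K4me3 in each list. All genes gave 54.1% in water and 58.2% after crotonate by that count. A mark is not a measure of expression, and the part that other cell types had in the peaks was not tested.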

How the data were processed

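Peak lists of 4 CUT&Tag libraries were used, 1 per mark and treatment. Per the submitters' processing notes, the tools were MACS2 2.2.7.1, Picard 2.22.0, SAMtools 1.10 and Bowtie2 2.4.1, with the build GRCm38. The authors' cut on q was 0.05, and the lowest −log10 q ran from 1.3 to 1.32 over the 4 lists. For other settings, duplicates and the background library the sources used here give nothing. The deposited lists give 1-based positions, length and 4 values per peak, per the file headers. Pileup is a signal at the summit, scaled per library by the authors. Fold enrichment is a linear ratio of summit to local background, as deposited. Significance is −log10 of p and q, per the file headers.

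All pileups were whole multiples of 1 step per list within 0.006, and pileup over step gave fragments. Fold enrichment was read as (pileup + 1) over (background + 1). On that reading, −log10 p recomputed from a Poisson model came within 1% of the deposited value for at least 99.5% of the peaks of each list. Total fragments are not stated, so list length and peak length can differ with depth.

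Peaks overlapping by 1 bp counted as shared. Overlap code (Python 3.11.15, numpy 2.4.6, pandas 2.3.3, scipy 1.17.1, matplotlib 3.10.9) was tested on simulated intervals and against bedtools 2.31.1. Starts came from a RefSeq table holding 12 for 7 of the 9 genes. All 9 genes are named. From the other pathway genes, up to 5 per mark and direction were to be named by highest −log10 q at their ends, and the rest were chosen with their values in view. The genes, lists and alternatives were chosen with earlier results of these data known.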

Additional observations from a re-analysis of the deposited data

How the results depend on the processing

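Gene windows, overlap rule, peak threshold and list length were varied 1 at a time. The counts of genes with H3K4me3 or H3K27me3 in each list, and with H3K4me3 after crotonate only, stayed within 1.5 times the reported value under every alternative run. Dab1 and Cdk5r2 kept their H3K4me3 peak in the crotonate list only under all 6 alternatives, which had little scope to remove it. At both starts it met no water H3K4me3 peak. Its fold enrichment (15.9 at Dab1, 13.6 at Cdk5r2) and −log10 q (30.35 and 23.95) lay far above the cuts of 5. Whether the single water library missed a call there was not tested by any alternative. Cdk5 dropped out with −log10 q of at least 5 and with lists of equal length. That left 2 genes (9.76% and 4.45% of all genes, against 15.3% as reported). Genes with H3K27me3 after crotonate only (3 as reported, 11.6% of all genes) numbered 5 with 10 kb either side (14.5%). They numbered 1, Cdk5r1, with fold enrichment of at least 5 (7.2%), with −log10 q of at least 5 (6.75%) and with lists of equal length (5.23%). H3K27me3 in water only was reported at 1 gene, Dcx (1.61% of all genes). That count became 0 with fold enrichment of at least 5 (1.35%) and with −log10 q of at least 5 (0.567%). With a reciprocal overlap of 50%, 1 gene, Cdk5, had H3K4me3 in water only (8.25% of all genes), since its peaks were joined after crotonate. Genes with overlapping marks became 0 in water (0.667% of all genes) and 0 after crotonate (1.25%) under that rule, which short peaks in long domains cannot meet. After crotonate 3 genes, without Cdk5r1, had overlapping marks under each stricter threshold and with lists of equal length. Of all genes, 5.54% (fold enrichment), 5.58% (−log10 q) and 5.24% (equal length) did so. The difference in H3K27me3 length turned at Cdk5r2, to 0.299 kb more after crotonate with 10 kb either side, and at Dcx, to -0.974 kb with lists of equal length, which removed its crotonate peaks. No paired analysis was possible because each mark and treatment has 1 library. Depth limits every absent call, as the weakest peaks rest on 8 to 16 fragments.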

Other observations

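Marker genes of Cajal-Retzius neurons, the main source of reelin in the embryonic cortex, were read in the same way. Like Reln, Trp73, Lhx1 and Ebf3, transcription factor genes of these neurons, had overlapping H3K4me3 and H3K27me3 peaks in both lists. Such overlap was found at 4 of the 6 markers in water and 5 after crotonate, beside 4.18% and 7.63% of all genes. At Lhx1 the strongest H3K27me3 peak measured 23.9 kb in water and 31.9 kb after crotonate, and at Trp73 8.56 and 12.3 kb. The H3K27me3 domain of Lhx5 measured 18.4 kb in water and 19.4 kb with crotonate. Its H3K4me3 peak, 0.893 kb long with 43 fragments at the summit and percentile 24.5, was found after crotonate only. Calb2, which encodes calretinin, had no peak of either mark in water and 3 H3K27me3 peaks after crotonate, the strongest 1.40 kb long with 20 fragments. Of the 6 markers, Reln included, 5 had H3K27me3 in water and 6 after crotonate, beside 12.2% and 17.2% of all genes. This list was chosen with earlier results of these data known.

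Among neuronal markers without H3K4me3 in either list, Stmn2 and Slc17a6 lay under H3K27me3 peaks of 4.28 and 6.58 kb in water, and of 4.28 and 10.5 kb with crotonate. Dcx, also without H3K4me3, had no such domain.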
